A study of Mus musculus with 12 samples.

Results

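Triglyceride, the storage fat of animals, is assembled on a glycerol backbone by a short chain of enzymes, and 10 genes of that chain were followed in white adipose tissue (WAT), skeletal muscle and liver. The genes were Gpd1, Gpd2, Gpam, Gpat3, Agpat2, Lpin1, Lpin2, Mogat1, Dgat1 and Dgat2. They were taken by symbol alone, as every probe set that the array annotation gives to one of these genes and to no other gene, which left 23 of 45037 probe sets, for 10 of 18193 genes. A probe set is the group of short probes that reads a transcript, and 7 of the 10 genes had more than 1. RNA came from female Ghsr KO mice (Ghsr-/-, congenic on C57BL/6) aged 12 weeks, all of which lack the ghrelin receptor GHSR, the controls included, so that no animal with the receptor was compared. The mice received an intraperitoneal injection of saline or of unacylated ghrelin (UAG), the form of the stomach peptide without its acyl group, at 20 nmol/kg. Gonadal WAT, M. vastus lateralis and liver were taken 6 h later, and each of the 3 tissues had 2 saline and 2 UAG arrays, 12 in all.

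In the pathway, GPD1 makes glycerol 3-phosphate from a glycolytic intermediate in the cytosol, and GPD2 turns it back at the mitochondrial membrane. GPAM and GPAT3 add the first fatty acyl chain, AGPAT2 adds the next to give phosphatidate, and the lipins LPIN1 and LPIN2 remove the phosphate to give diacylglycerol. MOGAT1 reaches diacylglycerol by another route, from monoacylglycerol, and DGAT1 and DGAT2 add the last acyl chain. Adipocytes use the pathway to store fat, hepatocytes to store it and to load it onto secreted lipoproteins. Loss of AGPAT2 causes lipodystrophy, as loss of lipin 1 does in mice.

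Intensities below 30, the threshold in the study's methods, were set to 30, and each gene was read through its brightest probe set. Replicates correlated across all probe sets at r = 0.974 to 0.992 within WAT, 0.976 to 0.986 within muscle and 0.979 to 0.987 within liver, the saline pair of WAT being the least alike of its tissue. The methods describe a pair of mice per treatment, which reads as a mouse for each array of a group, but the labels do not say which arrays came from which mouse, so a p-value here reflects the spread between these arrays, and their number limits the precision. Several arrays stood apart by marker genes of cell types. WAT saline replicate 1 carried brown adipocyte genes (Ucp1 6772 against 702, Cidea 5614 against 619.8 on replicate 2, with 5 of 5 brown adipocyte genes higher) and more of all 6 skeletal muscle fibre genes (sum 4753 against 1286). On WAT saline replicate 2 smooth muscle genes stood out (sum of 5 genes 27767, against 4672 to 4790 on the other WAT arrays). All muscle arrays carried adipocyte genes beside fibre genes: Adipoq, the adipocyte hormone adiponectin, lay at 7674 to 11936 there, against 12280 to 14161 in WAT and the floor of 30 in liver, and Ucp1 lay at 1043 to 3713. On muscle saline replicate 2 the white adipocyte sum was 40315, against 25740 to 33701 on the other muscle arrays, and the keratin gene Krt18 was at 1056, against 30 to 252. On muscle UAG replicate 2 the neutrophil sum was 6683, against 218 to 413. In liver the hepatocyte markers Alb, Apoa1, Ttr, Serpina1c and Tat were high on every array. Liver UAG replicate 2 stood above the rest with a hepatocyte sum of 103123, against 71313 to 73749. Of the adipocyte genes, Adipoq, Lep, Ucp1 and Cidea were at the floor in liver and Fabp4 (242 to 345) and Elovl3 (168 to 219) were above it. In tissue RNA fewer cells of a type and less RNA per cell cannot be told apart.

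Start site sequence was at hand for 7 of the 10 genes, with 11 promoters between them (RefSeq, GRCm38.p6, 250 bases before to 50 after the annotated start). The 2 lipin promoters below are shown because Lpin2 had the clearest tissue difference towards liver and Lpin1 the lowest unadjusted p under UAG of the enzymes in liver. The Lpin1 sequence lies at chr12:16610917-16611216 on the minus strand, inside the span of the gene, and its capitals mark TGTTCT, the reverse complement of the hexamer AGAACA of glucocorticoid receptor elements. The Lpin2 sequence is the first of 3 annotated starts, at chr17:71183282-71183581 on the plus strand, and its capitals mark the E-box CACGTG, which is its own reverse complement.
Lpin1: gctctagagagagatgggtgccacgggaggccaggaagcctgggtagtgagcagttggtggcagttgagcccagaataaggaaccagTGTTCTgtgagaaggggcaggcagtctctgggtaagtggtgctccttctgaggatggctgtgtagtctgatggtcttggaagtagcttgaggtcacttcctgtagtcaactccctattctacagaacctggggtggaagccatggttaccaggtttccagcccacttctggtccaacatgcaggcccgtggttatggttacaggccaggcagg
Lpin2: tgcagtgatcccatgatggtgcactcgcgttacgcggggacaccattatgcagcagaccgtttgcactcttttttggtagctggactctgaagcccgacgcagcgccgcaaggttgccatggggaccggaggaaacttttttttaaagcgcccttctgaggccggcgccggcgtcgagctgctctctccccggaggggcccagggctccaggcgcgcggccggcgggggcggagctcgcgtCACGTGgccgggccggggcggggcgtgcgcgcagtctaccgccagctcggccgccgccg
G and C made up 55.3% of the Lpin1 promoter and 68.7% of the Lpin2 promoter, and the 11 promoters ran from 43.7% to 80.7%. On both strands, CACGTG was found in 1 of the 11 promoters (7.15% of 32851 mouse promoters of this length hold it), AGAACA in 2, of Lpin1 and Lpin2 (19%), CCAAT in 3, of Gpam, Lpin2 and Mogat1 (37.4%), and TATAAA in 0 (13.6%). The AGAACA match of Lpin2 lies at the last of its 3 starts. None of the 4 motifs holds the letters of another, and a match describes letters in a window, not a bound site.

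Most of the enzymes differed between tissues, and WAT had the highest values for most. Against liver, 8 of the 10 were higher in WAT, 1 was higher in liver and 1 was not called, where 35.4% of the 12588 genes tested were called higher in WAT and 27.3% higher in liver. Muscle showed 7 higher and 2 lower than liver (35% and 31.1% of genes in those directions). Between WAT and muscle, 7 were higher in WAT and 0 in muscle (32.9% and 22.9% of genes). The median log2 difference of the 10 was 1.85 between WAT and liver, 1.01 between WAT and muscle and 1.15 between muscle and liver, beside 0.08, 0.10 and 0.05 over all genes tested. A call is an adjusted p under 0.05 in limma, fitted to all 12 arrays with p-values adjusted over all 26530 probe sets tested.

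**Figure D1:**
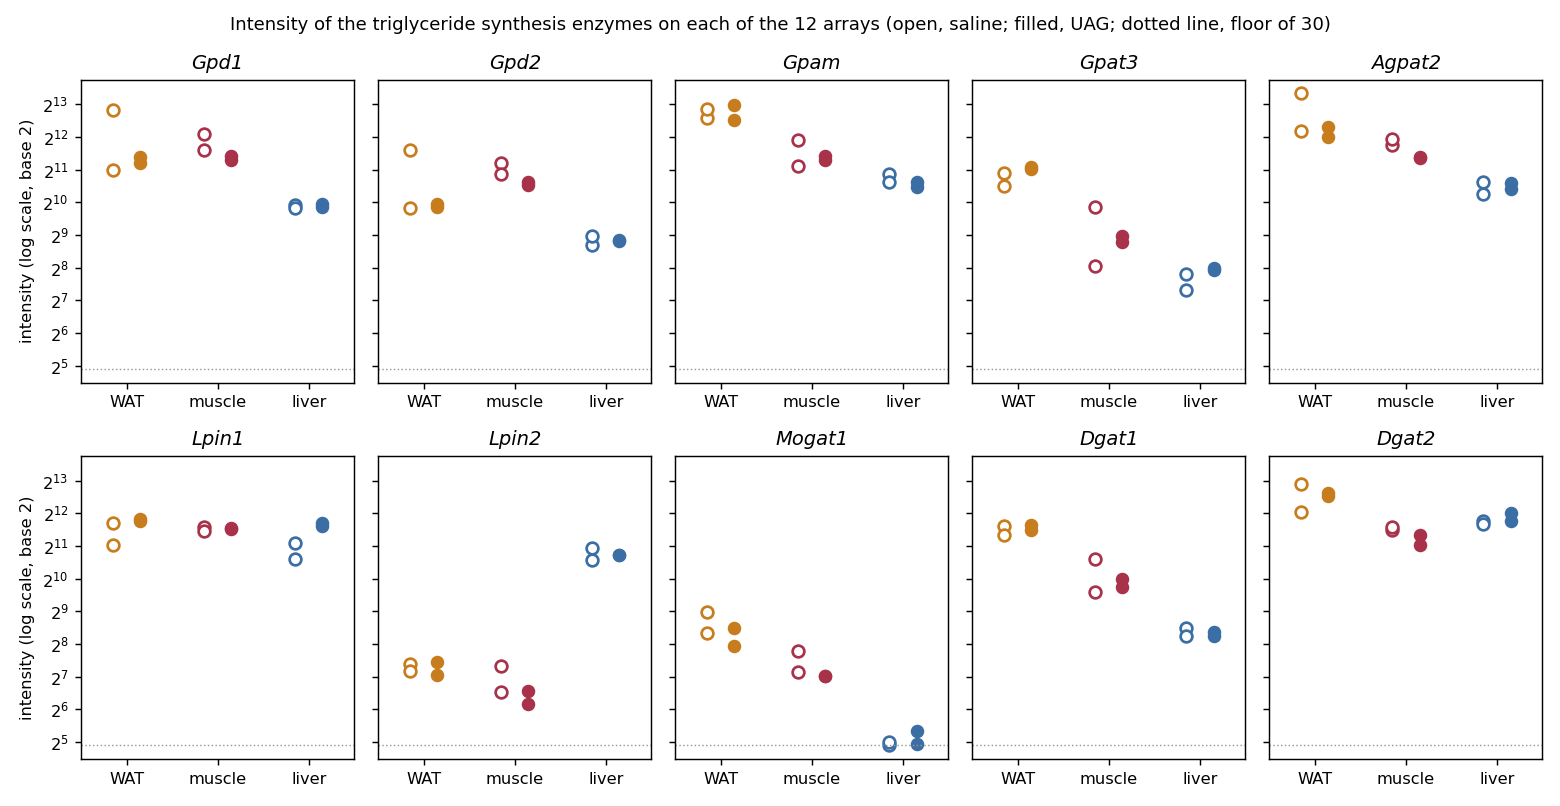
Each panel plots 1 gene: the intensity of its brightest probe set (y axis, log scale of base 2) on the 4 arrays of WAT, muscle and liver (x axis), with open circles for saline, filled circles for UAG and a dotted line at the floor of 30. Lpin2 is highest in liver, Mogat1 reaches the floor in liver, and for Gpd1, Gpd2 and Agpat2 the open WAT circles lie far apart.

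The supply of glycerol 3-phosphate came first in the pathway. Gpd1 (chr15:99717587-99725014) lay at 7261, 2013, 2343 and 2670 on the WAT arrays, in the order saline 1, saline 2, UAG 1, UAG 2. In muscle it lay at 4319, 3128, 2712 and 2491, and in liver at 961, 917, 925 and 990. Every WAT and muscle array was above every liver array, with log2 differences of 1.71 (SE 0.30, adjusted p = 0.000606) for WAT and 1.71 (SE 0.30, adjusted p = 0.000542) for muscle against liver. WAT and muscle differed by 0.00 (95% interval -0.67 to 0.67). That value turned on the saline arrays of WAT: it was -0.46 without replicate 1 (limma adjusted p = 0.0101) and 0.46 without replicate 2 (0.0104). Of the other Gpd1 probe sets, 1 showed the same order, 1 dim probe set (66 to 170 over all arrays) had no called tissue difference, and 1 was at the floor on all 12 arrays. As the mean of its probe sets Gpd1 was not called between WAT and liver (0.61, adjusted p = 0.0647) or muscle and liver (0.59, adjusted p = 0.0689).

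Gpd2 (chr2:57237678-57370719), the mitochondrial partner of Gpd1 in the glycerol phosphate shuttle, lay at 3111, 911, 925 and 986 in WAT. Its muscle values were 2383, 1887, 1585 and 1482, and its liver values 417, 502, 456 and 450. Liver was the lowest tissue on every array, by 1.48 on the log2 scale against WAT (SE 0.29, adjusted p = 0.00115) and 1.99 against muscle (SE 0.29, adjusted p = 0.000121). All muscle arrays lay above 3 of the 4 WAT arrays, but the difference was not called (-0.51 for WAT minus muscle, SE 0.29, adjusted p = 0.172). This value was -0.95 without WAT saline replicate 1 and -0.06 without WAT saline replicate 2. A separate, bright probe set gave -1.25 on all arrays (adjusted p = 0.006 by limma). The remaining, dimmer Gpd2 probe sets were not called (-0.60, adjusted p = 0.154, and -0.45, adjusted p = 0.113, by limma).

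Both acyltransferases that add the first chain were highest in WAT. Gpam (chr19:55067635-55127319), the mitochondrial glycerol 3-phosphate acyltransferase, lay at 6142, 7363, 7994 and 5882 in WAT. Its values in muscle were 2200, 3875, 2760 and 2502 and those in liver 1877, 1564, 1430 and 1591. The 3 tissues did not overlap, and WAT was above liver by 2.08 (SE 0.18, adjusted p = 1.91e-06) and above muscle by 1.29 (SE 0.18, adjusted p = 0.000135). Muscle was above liver by 0.78 (SE 0.18, adjusted p = 0.00255).

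Gpat3 (chr5:100845665-100899102), the isozyme of the endoplasmic reticulum, was at 1463, 1914, 2056 and 2174 in WAT. Muscle had 264, 929, 498 and 442, and liver 159, 226, 245 and 254. All muscle arrays exceeded all liver arrays, the lowest of them, saline replicate 1, by little. WAT was 3.11 above liver on the log2 scale (SE 0.31, adjusted p = 6.43e-06) and 1.96 above muscle (SE 0.31, adjusted p = 0.000337), and muscle was 1.15 above liver (SE 0.31, adjusted p = 0.00708).

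Agpat2 (chr2:26593057-26604417), which makes phosphatidate, lay at 10302, 4614, 4137 and 5038 in WAT. Muscle had 3469, 3905, 2698 and 2611, and liver 1577, 1215, 1546 and 1360. No tissue overlapped another, and the order was WAT, muscle, liver. WAT minus liver was 1.99 (SE 0.21, adjusted p = 1.22e-05), WAT minus muscle 0.84 (SE 0.21, adjusted p = 0.00652) and muscle minus liver 1.14 (SE 0.21, adjusted p = 0.000701).

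The 2 lipins had different patterns. Lpin2 (chr17:71183532-71249818) was the liver gene of the set, at 1518, 1958, 1690 and 1701 there. In WAT it was at 168, 146, 174 and 133, and in muscle at 93.4, 161, 72.2 and 94.9. Liver was 11.1-fold above WAT (log2 difference WAT minus liver -3.47, SE 0.18, adjusted p = 3.49e-08) and 17-fold above muscle (-4.08, SE 0.18, adjusted p = 7.25e-09). The other 3 Lpin2 probe sets were also called higher in liver, with WAT minus liver from -4.65 to -1.88, and lay between 30 and 85.8 in WAT and muscle. The smaller WAT minus muscle value of 0.61 (adjusted p = 0.0162) was not called for those 3 probe sets and was lost with a floor of 100, with saline arrays only (0.35, adjusted p = 0.438) and without muscle saline replicate 1 (0.42, adjusted p = 0.0569).

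Lpin1 (chr12:16535669-16653903) is known as the main lipin of fat and muscle and for a second role as a nuclear coactivator. Through its brightest probe set it had no called tissue difference. Its intensities were 3302, 2094, 3489 and 3627 in WAT. Muscle had 3051, 2793, 3022 and 2921, and liver 2201, 1553, 3133 and 3321. The liver values spread from below to within the range of WAT and muscle, and no tissue difference was called through this probe set (WAT minus liver 0.32, 95% interval -0.01 to 0.66, adjusted p = 0.0892, muscle minus liver 0.27, adjusted p = 0.147, and WAT minus muscle 0.05, adjusted p = 0.808). The second Lpin1 probe set was called for WAT above liver (0.76, adjusted p = 0.00602) and for muscle above liver (0.61, adjusted p = 0.0178). As the mean of its probe sets Lpin1 was called by limma in both comparisons too (0.54, adjusted p = 0.022, and 0.44, adjusted p = 0.0491).

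Mogat1 (chr1:78511060-78606964), a monoacylglycerol acyltransferase, was the dimmest enzyme relative to the floor in liver, at 30, 32.3, 40.8 and 31. WAT arrays read 507, 326, 246 and 363, and muscle arrays 141, 221, 130 and 129. All 3 tissues were apart. The log2 differences from liver, 3.39 for WAT (SE 0.21, adjusted p = 1.31e-07) and 2.18 for muscle (SE 0.21, adjusted p = 4.22e-06), were limited by the floor, and with a floor of 100 the muscle value was no longer called (0.60, adjusted p = 0.061). WAT was above muscle by 1.21 (SE 0.21, adjusted p = 0.000679).

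Of the last enzymes, Dgat1 (chr15:76502012-76512021) lay at 3134, 2607, 2906 and 3199 in WAT. Muscle arrays gave 767, 1558, 866 and 1019 and liver arrays 359, 304, 305 and 333. WAT was 9.1-fold above liver (log2 3.19, SE 0.19, adjusted p = 9.00e-08) and 2.91-fold above muscle (log2 1.54, adjusted p = 6.37e-05), with no overlap. Muscle stood 1.64 above liver (SE 0.19, adjusted p = 1.8e-05).

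Dgat2 (chr7:99153663-99182713), which shares the reaction with DGAT1 but no sequence family, had a flatter pattern. It lay at 7684, 4243, 5932 and 6315 in WAT. Muscle had 2851, 3058, 2113 and 2577, and liver 3449, 3278, 4094 and 3481. WAT was above liver by 0.73 (SE 0.17, adjusted p = 0.0031) and above muscle by 1.17 (SE 0.17, adjusted p = 0.000187). Liver was above muscle on all arrays, but by little (muscle minus liver -0.44, SE 0.17, adjusted p = 0.0399), and this call was lost without any single one of 7 of the 8 muscle and liver arrays (adjusted p up to 0.134) and for the second probe set (-0.22, adjusted p = 0.476).

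**Figure D2:**
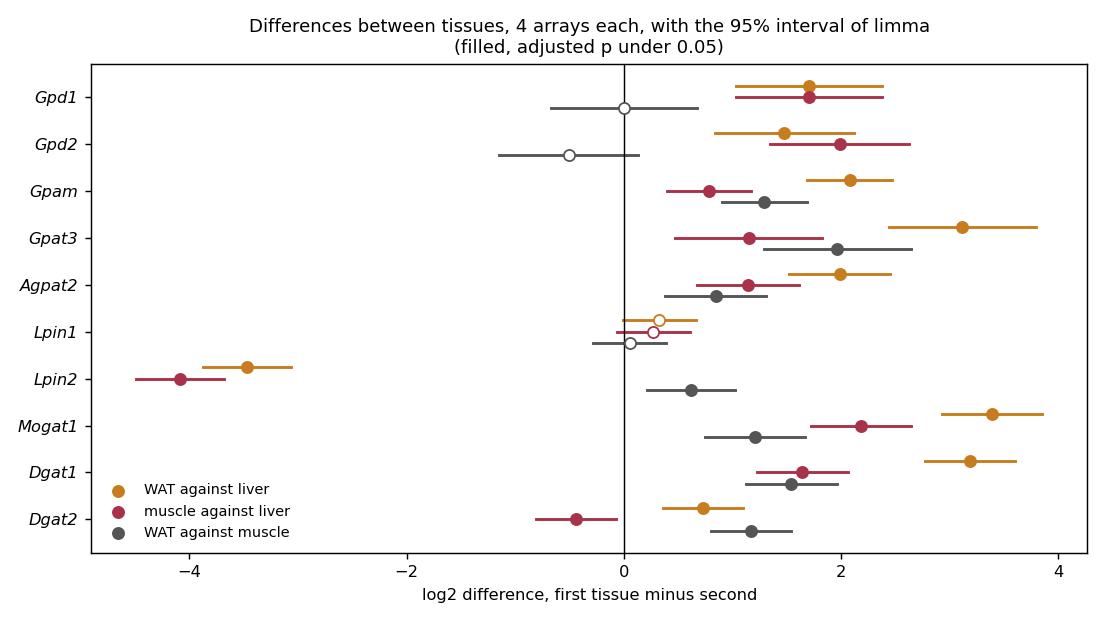
Log2 differences between tissues (x axis, first tissue minus second) for the 10 enzymes (y axis), with the 95% interval of limma as bars and filled points for an adjusted p under 0.05. Filled points to the right of 0 number 8 for WAT against liver and 7 for muscle against liver, Lpin2 lies far to the left at -3.47 and -4.08, and Lpin1 is open in every comparison.

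With saline arrays only, 3 of the 10 enzymes (Gpam, Dgat1 and Mogat1) were called between WAT and muscle in place of 7. Against liver, the calls lost with saline arrays only were those of Gpam (adjusted p = 0.0825), Gpat3 (0.0925) and Dgat2 (0.643) in muscle and of Dgat2 in WAT (0.087). The saline arrays of both tissues were spread along the marker genes described above. In WAT, 8 of the 10 enzymes were higher on saline replicate 1 than on replicate 2, by a median of 0.65 on the log2 scale, against 0.01 over all genes tested, of which 50.8% were higher there. The gap was 3.61-fold for Gpd1, 3.41-fold for Gpd2, 2.23-fold for Agpat2 and 1.81-fold for Dgat2, on the array where Ucp1 was 9.64-fold and Cidea 9.06-fold higher. Gpam and Gpat3 were lower on it (0.834-fold and 0.765-fold). Between the 2 UAG arrays of WAT the median gap was -0.09. In muscle, 7 of the 10 were highest of all muscle arrays on saline replicate 2, where 4 of the 5 white adipocyte markers (Adipoq, Cidec, Fabp4 and Retn) were highest too, while Lep was lowest there (172, against 176 to 626). Gpat3 was 0.284-fold and Dgat1 0.492-fold as high on replicate 1 as on replicate 2, beside 0.391-fold for Cidec and 0.643-fold for Adipoq. Gpd1, Gpd2 and Lpin1 went the other way and were highest on muscle saline replicate 1, as were 3 of the 5 brown adipocyte genes (Ucp1, Cidea and Elovl3), while Cox8b and Cox7a1 were highest on UAG replicate 1. The part of these cell types in the values of the enzymes was not tested.

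**Figure D3:**
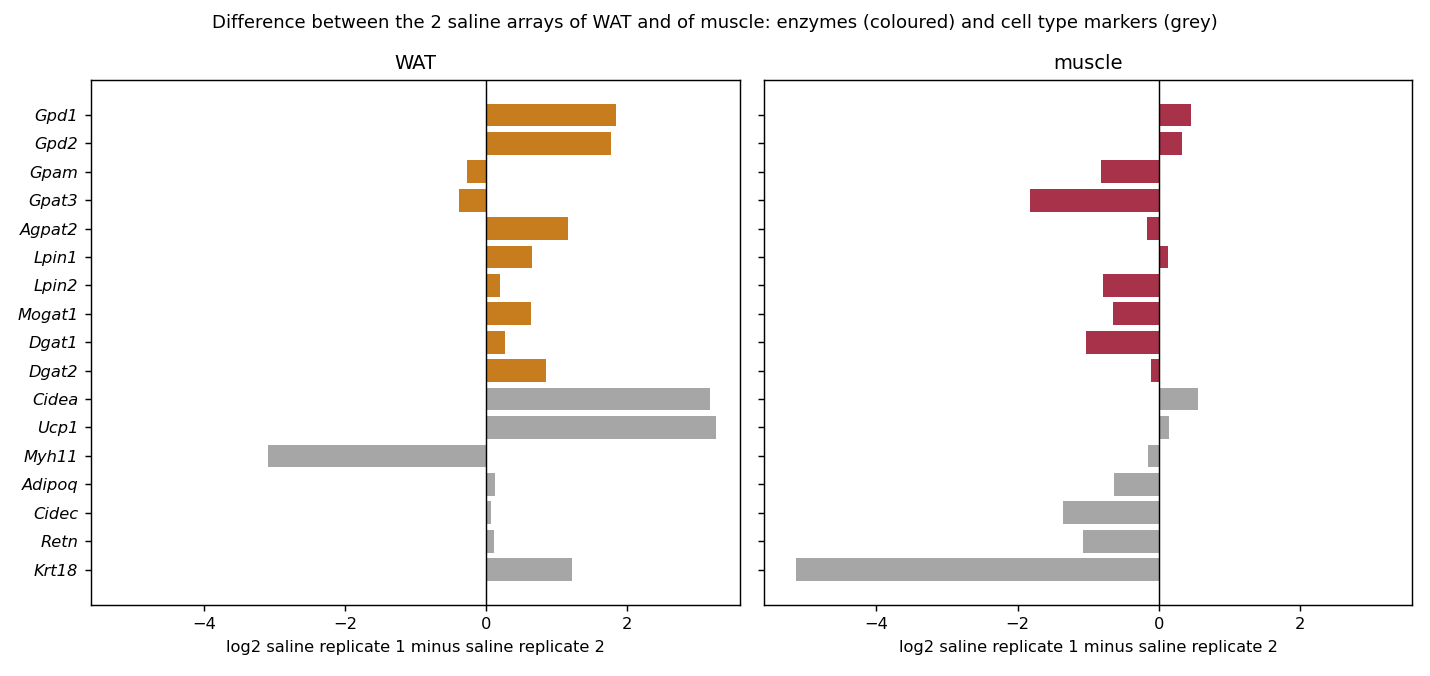
Bars give the log2 difference of saline replicate 1 minus saline replicate 2 (x axis) in WAT and in muscle for the 10 enzymes (coloured) and 7 cell type markers (grey, y axis). In WAT, Gpd1, Gpd2 and Agpat2 extend to the right with Cidea and Ucp1, and in muscle Gpat3, Dgat1 and Gpam extend to the left with Cidec, Retn and Krt18.

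UAG against saline asked whether the peptide changes these genes in mice without GHSR. By limma on the 4 arrays of each tissue, 0 of the 10 enzymes were called in WAT, muscle or liver, where 0% of 11991, 0% of 11902 and 0% of 11890 genes were called. At an unadjusted p under 0.05 there were 0 enzymes in WAT (845 genes), 3 in muscle (219 genes) and 1 in liver (398 genes). Beside limma, the 2-fold rule of the study's methods (ratio of mean intensities of at least 2 or at most 0.5, with no p) and a count of genes whose 2 UAG arrays lay both above or both below the 2 saline arrays were used.

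In WAT, 5 enzymes were above and 5 below 0 in log2 difference, with a median of 0.00 (all genes 0.03). Gpd2 was past the 2-fold rule, with a mean of 2011 ± 1556 (SD, n = 2) under saline and 955 ± 43 (SD, n = 2) under UAG, a ratio of 0.475. By the rule, 1.92% of genes were lower and 0.492% higher under UAG. Both UAG values, 925 and 986, lay between the saline values of 3111 and 911. Without saline replicate 1 the log2 difference of Gpd2 was 0.07 in place of -0.82 and no enzyme passed, and without saline replicate 2, 3 passed, Agpat2, Gpd1 and Gpd2. A pair of other Gpd2 probe sets (ratios 0.471 and 0.36) and the next brightest Gpd1 probe set (0.375) were past the rule as well. Each had its highest value on saline replicate 1. The Gpd2 probe set with the ratio of 0.36 also had both UAG arrays below both saline arrays (501 and 142 to 102 and 129). The brown adipocyte sum of 5 genes was 19890 on that array, 2847 on saline replicate 2 and 4020 and 1939 under UAG. This sum holds Cox8b and Cox7a1, which were also high on the muscle arrays. In the same order, the skeletal muscle fibre sum was 4753, 1286, 1979 and 2393. The smooth muscle sum was 4790, 27767, 4676 and 4672. The part of these cell types in the enzyme values was not tested.

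Gpd1 and Agpat2 gave log2 differences of -0.61 (95% interval -2.02 to 0.79) and -0.59 (-1.55 to 0.37), with the UAG arrays of Gpd1 inside the saline range and those of Agpat2 reaching from below to inside it. Mogat1 gave -0.44 (-1.16 to 0.27) and Lpin2 -0.04 (-0.57 to 0.49). Above 0 were Lpin1 at 0.44 (-0.17 to 1.04), Gpat3 at 0.34 (-0.11 to 0.79), Dgat1 at 0.09 (-0.33 to 0.52), Dgat2 at 0.10 (-0.65 to 0.85) and Gpam at 0.03 (-0.54 to 0.59). Adjusted p by limma ran from 0.783 to 0.984. Through the brightest probe sets, Lpin1 and Gpat3 had both UAG arrays above both saline arrays, and no enzyme had both below. Of all genes, 23.8% were apart upwards and 14.2% downwards. The second Lpin1 probe set overlapped (3321 and 1925 to 3037 and 3829, log2 0.43). Against the sign of the brightest probe set were the second Dgat2 probe set (-0.17), the dim Gpd1 probe set (0.11) and an Lpin2 probe set (0.12), all overlapping. The second Gpam probe set had lower values under UAG (1636 and 1418 to 885 and 1214, ratio 0.687, unadjusted p = 0.0342, adjusted p = 0.718 by limma), unlike the first.

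In muscle, 9 of the 10 enzymes were below 0, with a median of -0.39 (all genes 0.01, 47.7% below 0). No enzyme was past the 2-fold rule (0.344% of genes lower, 0.269% higher). Gpd1 had 4319 and 3128 under saline and 2712 and 2491 under UAG, a log2 difference of -0.50 (95% interval -0.94 to -0.07, limma unadjusted p = 0.0288). It was -0.27 without saline replicate 1, -0.73 without saline replicate 2 and -0.09 as the mean of all Gpd1 probe sets. Gpd2 gave -0.47 (-0.87 to -0.06, unadjusted p = 0.0281) and Agpat2 -0.47 (-0.83 to -0.11, unadjusted p = 0.0162), and the adjusted p of all 10 enzymes was 1. Agpat2, Dgat2, Mogat1, Gpd1 and Gpd2 had both UAG arrays below both saline arrays, 5 of 10 beside 9.73% of genes, and 0 were apart upwards (11.8% of genes). Of the 5 brown adipocyte genes, 4 had a lower mean under UAG in the same arrays, among them Ucp1 (3713 and 3348 to 2558 and 1043) and Cidea (4040 and 2739 to 2093 and 1867). Cox8b (10123 and 8558 to 10590 and 8051) and Cox7a1 (3696 and 3128 to 3783 and 3359) overlapped between the groups. Both were higher on every muscle array than on any WAT array (at most 5296 and 1083 there). The sum of the 5 genes was 22033 and 18230 under saline and 19425 and 14494 under UAG. As it holds Cox8b and Cox7a1, it does not measure brown adipocytes alone in muscle. The part of these genes in the values of the enzymes was not tested.

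The remaining muscle values were -0.57 for Lpin2 (95% interval -1.32 to 0.18), -0.44 for Mogat1 (-1.08 to 0.19), -0.34 for Dgat2 (-0.73 to 0.05), -0.22 for Dgat1 (-0.90 to 0.46), -0.15 for Gpam (-0.72 to 0.42), -0.08 for Gpat3 (-1.15 to 1.00) and 0.03 for Lpin1 (-0.33 to 0.38). Lpin1, flat in muscle on all 4 arrays (2793 to 3051), had the narrowest interval among these 7. Without saline replicate 2, the array with the highest white adipocyte sum, Gpam (0.26), Gpat3 (0.83) and Dgat1 (0.29) lay above 0. Against the direction of its brightest probe set, the dim Gpd1 probe set had higher values under UAG (73.6 and 123 to 170 and 149, ratio 1.62, unadjusted p = 0.038, adjusted p = 1 by limma). A separate Gpd2 probe set was brighter in muscle than the one read (mean 2625 against 1834). Its groups overlapped (3212 and 2382 to 2510 and 2395, log2 -0.17, unadjusted p = 0.376 by limma). Another was apart downwards (400 and 244 to 225 and 225, log2 -0.48). The dimmest Gpd2 probe set had the direction of the brightest and passed the 2-fold rule (95.6 and 46.5 to 30 and 35.1), with a UAG array at the floor.

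In liver, 6 enzymes were above and 4 below 0, with a median of 0.05 (all genes 0.01). Lpin1 had the lowest unadjusted p of the 10 in any tissue. It lay at 2201 and 1553 under saline and at 3133 and 3321 under UAG, so the groups did not overlap. The log2 difference was 0.80 (SE 0.17, 95% interval 0.42 to 1.19) and the ratio of means 1.72, with an unadjusted p = 0.00117 and an adjusted p = 0.841 by limma. The second Lpin1 probe set moved alike (1737 and 1049 to 2190 and 2269, ratio 1.6, log2 0.72, unadjusted p = 0.00753). The value was 1.05 without saline replicate 1, past the 2-fold rule, and 0.55 without saline replicate 2. On UAG replicate 2, the liver array with the highest hepatocyte sum, Lpin1 lay at 3321, against 3133 on UAG replicate 1. The log2 difference was 0.76 without UAG replicate 2 and 0.84 without UAG replicate 1. The part of hepatocyte content in the Lpin1 value was not tested. The 3′ to 5′ ratio of Actb, a measure of RNA integrity and labelling, was 1.7 and 1.78 for the liver saline arrays and 1.94 and 2.35 for the liver arrays with UAG. That of Gapdh overlapped between the groups, at 0.714 and 0.668 with saline and 0.723 and 0.695 with UAG. The part of RNA integrity and labelling in the Lpin1 value was not tested.

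Gpat3 gave 0.40 in liver (95% interval -0.06 to 0.86) and Dgat2 0.17 (-0.14 to 0.47). Through the brightest probe sets, these and Lpin1 were the 3 enzymes with both UAG arrays above both saline arrays (15.3% of genes), while 0 were apart downwards (14.4% of genes). Over the 20 tested probe sets of the enzymes, 5 were apart upwards and 3 downwards. Those downwards were the second of Gpam (657 and 522 to 458 and 495, log2 -0.30), the next brightest of Gpd1 (log2 -0.09) and 1 of Lpin2 (log2 -0.10). The second Dgat2 probe set overlapped in liver (2190 and 1953 to 2322 and 1968, log2 0.05). None of the 10 passed the 2-fold rule on all arrays (0.336% of genes higher, 0.269% lower). The others were Mogat1 at 0.19 (-0.57 to 0.95), near the floor, Agpat2 at 0.07 (-0.27 to 0.40), Gpd1 at 0.03 (-0.22 to 0.27), Gpd2 at -0.01 (-0.32 to 0.29), Lpin2 at -0.02 (-0.34 to 0.29), Dgat1 at -0.05 (-0.39 to 0.28) and Gpam at -0.18 (-0.48 to 0.11). The dim Gpd1 probe set had higher values under UAG here too (99.2 and 117 to 148 and 167, ratio 1.46, unadjusted p = 0.0426, adjusted p = 1 by limma).

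**Figure D4:**
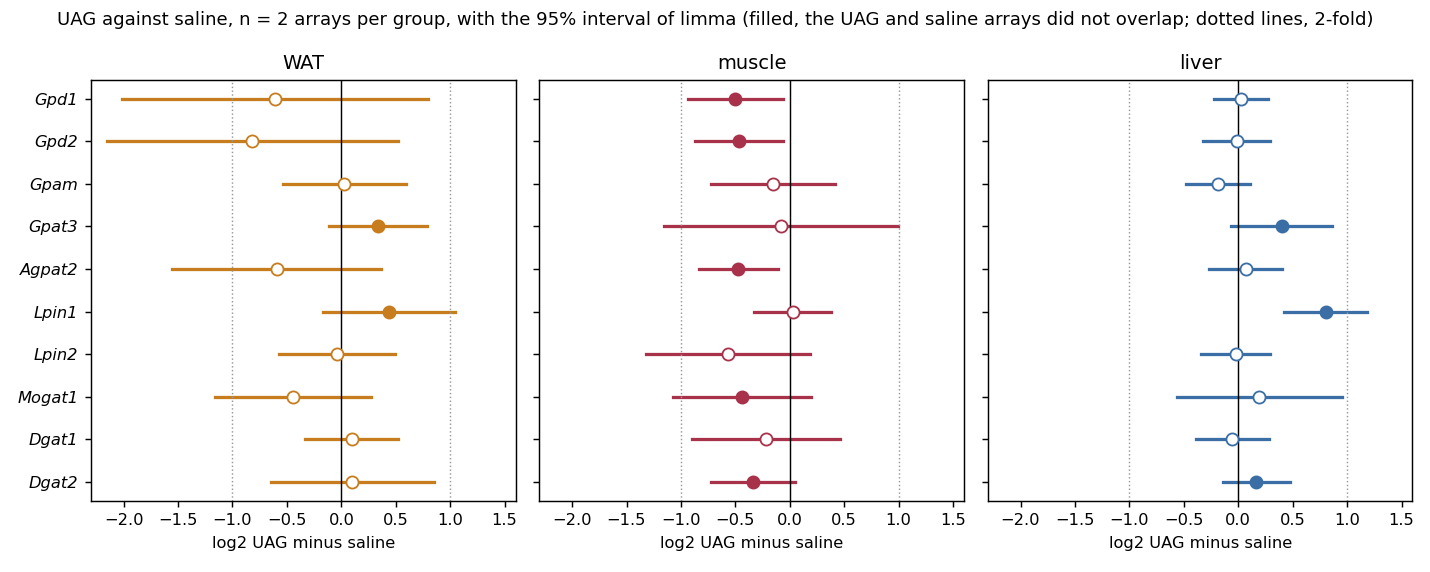
Log2 differences of UAG minus saline (x axis) for the 10 enzymes (y axis) in each of the 3 tissues, with the 95% interval of limma as bars, filled points where the 2 UAG arrays lay outside the 2 saline arrays, and dotted lines at a 2-fold difference. WAT bars are widest for Gpd1 and Gpd2, 9 muscle points lie left of 0, and Lpin1 in liver lies at 0.80.

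Whether the effect of UAG differed between tissues was tested in the fit to all 12 arrays. No enzyme was called between WAT and liver, WAT and muscle or muscle and liver (0%, 0.00794% and 0% of 12588 genes), with an adjusted p of 1 throughout by limma. At an unadjusted p under 0.05 were 0 enzymes for the first (564 genes), 0 for the next (456 genes) and 1, Lpin1, for the last (316 genes). For Lpin1 the effect in muscle minus that in liver was -0.78 (95% interval -1.45 to -0.10, unadjusted p = 0.0277). Without WAT saline replicate 2, the difference between WAT and liver was called for Gpd1 (-1.56, adjusted p = 0.0449) and Gpd2 (-1.69, adjusted p = 0.0185), which then rested on WAT saline replicate 1 alone.

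Other genes around the pathway were read from 5 lists chosen by function. Their counts of calls stand beside the shares over all genes tested. Between WAT and liver 35.4% of genes were called higher in WAT and 27.3% in liver. Between WAT and muscle the shares were 32.9% and 22.9%. Of 14 further isozymes and partners, 13 were tested between tissues, with 5 called higher in WAT and 2 in liver, and 8 higher in WAT and 1 in muscle. Bscl2, the lipid droplet protein seipin, was at 3616 in WAT, 1459 in muscle and 670 in liver (WAT minus liver 2.43, adjusted p = 1.13e-06). Mogat2, the intestinal relative of Mogat1, was at 98.4 in WAT and at or near the floor elsewhere, and the phosphatidate phosphatase Plpp2 was highest in liver (679, WAT 218). Under UAG, 0 of them were called by limma and 0 passed the 2-fold rule in any tissue, and Plpp2 in WAT was at 160 and 176 with saline and 310 and 227 with UAG (ratio 1.6, unadjusted p = 0.0215, adjusted p = 0.691).

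Of 4 measured genes of glycerol supply, 1 was called higher in WAT and 1 in liver when these were compared. Aqp7, the adipocyte glycerol channel, was at 486 in WAT, 145 in muscle and the floor in liver, and Aqp9, the hepatocyte channel, at 4159 in liver and 30.2 and 30.5 in WAT and muscle. Pck1, which feeds glyceroneogenesis, was at 8659 in liver, 5792 in WAT and 2202 in muscle (WAT minus muscle 1.42, adjusted p = 0.00661, muscle minus liver -2.09, adjusted p = 0.000389). Under UAG in WAT, Aqp7 gave 377 and 415 to 542 and 610 (ratio 1.45, unadjusted p = 0.0135, adjusted p = 0.644 by limma). Aqp3 in WAT passed the 2-fold rule (213 and 42.8 to 32 and 30, ratio 0.243), highest on saline replicate 1.

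Acyl-CoA synthetases activate the fatty acids that the enzymes use, and of the 4 genes measured 0 were called higher in WAT than in liver. Acsl3, Acsl4 and Acsl5 were higher in liver than in WAT (log2 -1.80, -1.44 and -1.70, adjusted p from 1.01e-06 to 0.000693) and Acsl6 was above the floor in muscle only, at a mean of 265. Acsl5 under UAG in muscle had 779 and 585 to 324 and 361, a ratio of 0.502 just short of the 2-fold rule (unadjusted p = 0.00127, adjusted p = 1 by limma). In WAT, Acsl5 (1854 and 694 to 676 and 579, ratio 0.492) and Acsl3 (271 and 103 to 96.6 and 87.9, ratio 0.492) passed the rule, both highest on saline replicate 1 as Gpd1, Gpd2 and Agpat2 were.

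Enzymes that draw phosphatidate and diacylglycerol into phospholipid were called in all 7 cases between WAT and liver, 2 higher in WAT and 5 in liver (35.4% and 27.3% of all genes tested). Chpt1, which makes phosphatidylcholine from diacylglycerol, was at 7564 in WAT and 1530 in liver (log2 2.30, adjusted p = 1.47e-07), and Pemt, which makes it by methylation, at 85 and 1759 (-4.38, adjusted p = 9.24e-11). Of 9 transcription factors known to act on the pathway, 4 were higher in WAT and 2 in liver, beside the same shares of genes. Pparg, the adipocyte factor, was at 1815, 559 and 104 in WAT, muscle and liver, and Ppara, the factor of hepatic fatty acid oxidation, at 156, 307 and 1519. Neither list had a call by limma under UAG, and Ppargc1a in WAT (120 and 46.8 to 32.8 and 50.2, ratio 0.496) was the only gene of the 2 lists past the 2-fold rule.

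The genes whose log2 pattern over the 12 arrays was most like that of an enzyme were ranked by Pearson's r among 9107 genes, as a description, since arrays of a tissue share their cells. For Gpd2 they were Pdhb (r = 0.989) and Dlat (0.981), which encode parts of the pyruvate dehydrogenase complex, and for Agpat2 Acaca (0.987) and Me1 (0.98), which serve fatty acid synthesis. Lpin2 was nearest to Lgals8 and Mup3 (both 0.995), Gpat3 to Opn3 (0.992) and Gpr160 (0.988), Gpam to Piezo1 and Prxl2a (both 0.987), Dgat1 to Dmrt2 (0.996) and Apmap (0.995), and Mogat1 to Ptges (0.993) and Car5b (0.989). Gpd1 was nearest to Chn1 (0.98) and Kcnk3 (0.971) and Dgat2 to BC031181 (0.967) and Tmem135 (0.961). Lpin1 had the least close neighbours, Sybu (0.919) and Jade2 (0.874).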

How the data were processed

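RNA of WAT, muscle and liver was measured on 12 Affymetrix Mouse Genome 430 2.0 arrays. The deposited values are on a log2 scale, normalized by the authors (MAS5 per the submitters' processing notes, with no version given, and quantile normalization in R per the methods). No source gives the base of the logarithm. It was taken as 2, since base e would give a maximum of 2.31e+06, past the 65535 of a 16-bit scanner, and base 2 gives 25724.

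Values were returned to intensity, set to at least 30 and put back on the log2 scale. limma 3.58.1 in R 4.3.3, with an intensity trend, was fitted to the 4 arrays of each tissue for UAG, and to all 12 with a mean per group for tissues and for differences of the UAG effect. Tests covered the probe sets whose mean intensity reached 30, with Benjamini-Hochberg adjustment across all of them. The 64 controls were omitted. Of the other probe sets, 34945 named 1 gene, 932 several and 9160 none, and a gene was read through its brightest probe set over the 12 arrays. Enzymes, pathway lists, markers and tests were chosen with earlier results of these data known. All enzymes are named. Of each pathway list the rule takes those past the threshold or, with none or more than 3, the 3 with the largest log2 difference, and not all of these are printed. Gk, Acsl1, Plin1 and Cfd were not analysed here. Scripts were tested on simulated data. Alternatives were other floors, filters, normalizations, probe set rules and fits, the replicate number as a block, arrays of a single treatment, and each array left out in turn. Those with UAG arrays only and with crossed numbers were chosen after seeing the data.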

Additional observations from a re-analysis of the deposited data

Results flagged for a closer look

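Dgat2 was marked because its arrays moved in opposite directions under UAG in 2 tissues: in muscle both UAG arrays lay below both saline arrays (2851 and 3058 to 2113 and 2577), and in liver both lay above (3449 and 3278 to 4094 and 3481). The log2 effect in muscle minus that in liver was -0.51 (95% interval -1.25 to 0.23), and the test of this difference in limma gave an unadjusted p of 0.159 and an adjusted p of 1. These values are those of the brightest probe set. The second Dgat2 probe set was apart downwards in muscle (1953 and 2177 to 1398 and 1797). In liver its groups overlapped (2190 and 1953 to 2322 and 1968, log2 0.05), so the rise in liver was seen on the brightest probe set only.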

How the results depend on the processing

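UAG counts by limma stayed at 0 enzymes in each tissue under every alternative that was run. Calls between WAT and liver ranged from 9 to 10 enzymes with single arrays left out, those between WAT and muscle from 6 to 9 and those between muscle and liver from 8 to 9. With saline arrays only, calls between WAT and muscle went from 7 to 3, and 4 calls against liver were lost. Leaving out single arrays moved the number of enzymes below 0 under UAG in WAT between 3 and 7 (5 with all arrays), in muscle between 7 and 9, and in liver between 3 and 5. The 2-fold count in WAT was 1 with all arrays, 0 with geometric means, 0 without saline replicate 1 and 3 without saline replicate 2. In liver it ranged from 0 to 1, the gene being Lpin1 without saline replicate 1. Enzymes called for a difference of the UAG effect between tissues ranged from 0 to 2, the 2 being Gpd1 and Gpd2 without WAT saline replicate 2.

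Of 309 single UAG differences recomputed under other settings, 304 stayed within their error and 5 moved, and of 118 with an array left out, 38 moved and 21 changed sign, all of them uncalled. Of 360 tissue differences under other settings, 19 lost their call and 5 gained one, and with an array left out 10 of 240 lost it and 5 gained it. The replicate number as a block left the UAG counts at 0 and the tissue counts at 9, 7 and 9, and as a block by mouse at 10, 7 and 9, the additional call being Lpin1 (0.32, adjusted p = 0.0261). Same-numbered saline and UAG arrays correlated in their deviations at -0.18 in WAT, 0.18 in muscle and -0.03 in liver, so the numbers were not taken to pair them. The crossed pairing in WAT also gave 0 calls. The 2 arrays per group limit what could be detected, and values near the floor of 30 have no order.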

Other observations

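Among the adipocyte markers measured beside the enzymes, Lep, the hormone leptin, was higher on both UAG arrays than on both saline arrays in WAT (1495 and 392 to 2762 and 3283, ratio 3.2, limma unadjusted p = 0.0165, adjusted p = 0.659) and in muscle (176 and 172 to 366 and 626, ratio 2.85, unadjusted p = 0.000506, adjusted p = 1). It was at the floor on all liver arrays. The gene was singled out after its values were seen.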
